A study of Mus musculus with 8 samples.

Results

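Core pluripotency factors and cofactors were followed in mouse embryonic stem cells (ESCs) with and without Dax1, the orphan nuclear receptor encoded by Nr0b1, in both of the media in which these cells are commonly grown. The set was 9 listed genes, Pou5f1, Sox2, Sall1, Sall4, Nacc1, Zfp281, Tcf7l1, Foxd3 and Gbx2, matched by symbol to the Ensembl identifiers of the count files, which list 52550 genes. All 9 were found, and all 9 were among the 20749 genes that passed the filter on low counts. Control ESCs and Dax1KO ESCs, which carry a CRISPR/Cas9 knockout of Dax1, were each grown in 2i/LIF and in LIF/serum on gelatin, at passage 3, and mRNA was sequenced from 2 libraries in each of the 4 groups. The 2i/LIF medium was N2B27 with 1 µM of the MEK inhibitor PD0325901, 3 µM of the GSK3 inhibitor CHIR99021 and 10 ng/ml of the cytokine LIF. The LIF/serum medium was DMEM with 15% FBS and 10 ng/ml LIF. The Dax1KO line used for functional work was a clone, Dax1KO-7, that had been obtained in 2i/LIF and was then moved to LIF/serum. A line in which Dax1 was put back was not analysed here, so an effect of Dax1 loss and a property of that clone cannot be told apart from these libraries. No source says that the libraries of a group came from separate cultures, so the p-values below measure only the spread between these libraries, which may be technical.

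Pou5f1 encodes OCT4, which pairs with SOX2 on composite DNA elements and drives the genes that hold mouse ESCs in the pluripotent state. Around this pair works a wider set of factors that occupy many of the same enhancers and recruit chromatin complexes such as the nucleosome remodelling and deacetylase complex, NuRD. 2i/LIF holds ESCs in a naive ground state, whereas in serum ERK signalling is active and the cells are heterogeneous. Dax1 itself lacks a conventional DNA-binding domain and acts mostly as a corepressor bound to other factors, among them OCT4.

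The promoters of the core factor Pou5f1 and of Sall1, Foxd3 and Gbx2, the members whose level changed in Dax1KO cells in at least 1 medium, are shown first. RefSeq start sites on GRCm38.p6 gave 10 windows of 250 upstream bases for 7 of the 9 genes. Sall4 and Nacc1 had no entry. The capitals mark a GC box (GGGCGG, a site bound by SP and KLF factors) or a nuclear receptor half-site (AGGTCA).

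Pou5f1, GRCm38.p6, chr17:35505782-35506031, plus strand: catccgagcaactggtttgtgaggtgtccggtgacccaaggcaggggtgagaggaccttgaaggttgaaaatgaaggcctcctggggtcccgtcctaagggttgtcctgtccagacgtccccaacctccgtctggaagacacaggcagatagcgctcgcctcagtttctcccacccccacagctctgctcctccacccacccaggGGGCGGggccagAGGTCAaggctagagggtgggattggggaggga
Sall1, GRCm38.p6, chr8:89044163-89044412, minus strand: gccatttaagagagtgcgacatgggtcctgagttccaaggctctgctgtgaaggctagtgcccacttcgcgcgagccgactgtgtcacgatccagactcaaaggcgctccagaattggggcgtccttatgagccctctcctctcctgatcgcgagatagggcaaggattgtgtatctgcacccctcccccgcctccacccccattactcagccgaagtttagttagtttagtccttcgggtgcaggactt
Foxd3, GRCm38.p6, chr4:99656049-99656298, plus strand: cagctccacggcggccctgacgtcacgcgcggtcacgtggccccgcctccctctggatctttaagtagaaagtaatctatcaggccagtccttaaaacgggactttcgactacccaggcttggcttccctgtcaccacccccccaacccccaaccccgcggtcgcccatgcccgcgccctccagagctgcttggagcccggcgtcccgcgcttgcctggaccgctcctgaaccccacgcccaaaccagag
Gbx2, GRCm38.p6, chr1:89931177-89931426, minus strand: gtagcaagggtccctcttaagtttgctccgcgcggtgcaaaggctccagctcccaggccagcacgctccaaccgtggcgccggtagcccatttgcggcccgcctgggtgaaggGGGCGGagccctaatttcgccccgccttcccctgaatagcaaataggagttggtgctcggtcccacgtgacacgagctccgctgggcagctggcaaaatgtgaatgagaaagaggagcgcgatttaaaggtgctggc

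Each motif was searched on both strands, and no match overlapped a match of another motif. A GC box lay in 7 of the 10 windows, against 32.7% of all 32851 promoter windows in the RefSeq table. The windows with a GC box belonged to 6 of the 7 genes, and Sall1 and Pou5f1 gave several windows each. GC content ran from 45.6% to 78.4% in the windows of the members and was not compared with that of all windows. Foxd3 had no match to any of the motifs searched, and neither had the Sall1 window shown, while the other 2 windows of Sall1 held GC boxes. The half-site was present in Pou5f1 and Sox2, and in 14% of all windows. The octamer ATGCAAAT (1.6% of all windows) and the TCF/LEF motif CTTTGAT (3.21%) had no match in the 10 windows. The SOX motif CATTGTT (3.29%) had a match in the other Pou5f1 window only. These matches describe the letters in the windows and not binding, and the motifs were chosen after expression values had been seen.

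The depth of the 8 libraries was even, with totals of 35911384 to 37286251 counts, and the 10 highest genes took 4.27% to 5.18% of each library. Dax1 had 456 and 300 counts in control cells in 2i/LIF and 5095 and 4689 in those in LIF/serum. It had 0 in both Dax1KO libraries in 2i/LIF, and 14 and 6 in those in LIF/serum, so the labels of the knockout held. In control cells the normalized level of Dax1 was 13.7-fold lower in 2i/LIF than in LIF/serum. The label as ESCs was checked with 8 marker genes of ESCs other than the 9 members. None was near 0 in any group, and their summed level was 4412 to 5708 CPM (counts scaled to library size) in every library. A limit of 3 counts covers counting error only, while the 95% intervals of fold changes come from the edgeR fit and hold the spread between libraries.

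Levels were compared between genes per length, as RPKM, a count scaled to library size and to the length of a gene's exons. Pou5f1, Sox2, Nacc1 and Sall1 held the leading 4 places in this order in all 4 groups. In control ESCs in LIF/serum, Pou5f1 had an RPKM of 492 ± 77.0, Sox2 of 283 ± 19.7, Nacc1 of 160 ± 12.8 and Sall1 of 66.8 ± 15.8 (SD, n = 2). Pou5f1 then ranked above 99.5% of the genes tested. In 2i/LIF control ESCs the RPKM of the same genes was 306 ± 14.1, 245 ± 27.8, 96.3 ± 9.99 and 32.4 ± 0.090 (SD, n = 2). The libraries of neighbours in the order did not overlap among these 4 genes, apart from Sall1 and the next gene, Tcf7l1, in Dax1KO cells in 2i/LIF.

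The lower places depended on the medium. Gbx2 was the lowest member in control cells in 2i/LIF, at an RPKM of 3.31 ± 0.156, above 53.1% of the genes tested, and Foxd3 stood next at 7.94 ± 1.97 (SD, n = 2). In control cells in LIF/serum, Gbx2 reached 32.6 ± 6.00 (SD, n = 2). There it overlapped its neighbours Sall4 and Zfp281, and Foxd3 was the lowest member at 17.6 ± 1.94. Foxd3 was also the lowest in Dax1KO cells, at 2.55 ± 0.314 in 2i/LIF and 11.9 ± 4.17 in LIF/serum (SD, n = 2). In Dax1KO cells in LIF/serum, Zfp281, Tcf7l1, Gbx2 and Foxd3 followed each other with means of 18.9, 16.8, 15.6 and 11.9, and each overlapped the next, while both libraries of Zfp281 lay above both of Foxd3. All values that follow are counts scaled to a common library size (normalized counts), which compare libraries and not genes.

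**Figure D1:**
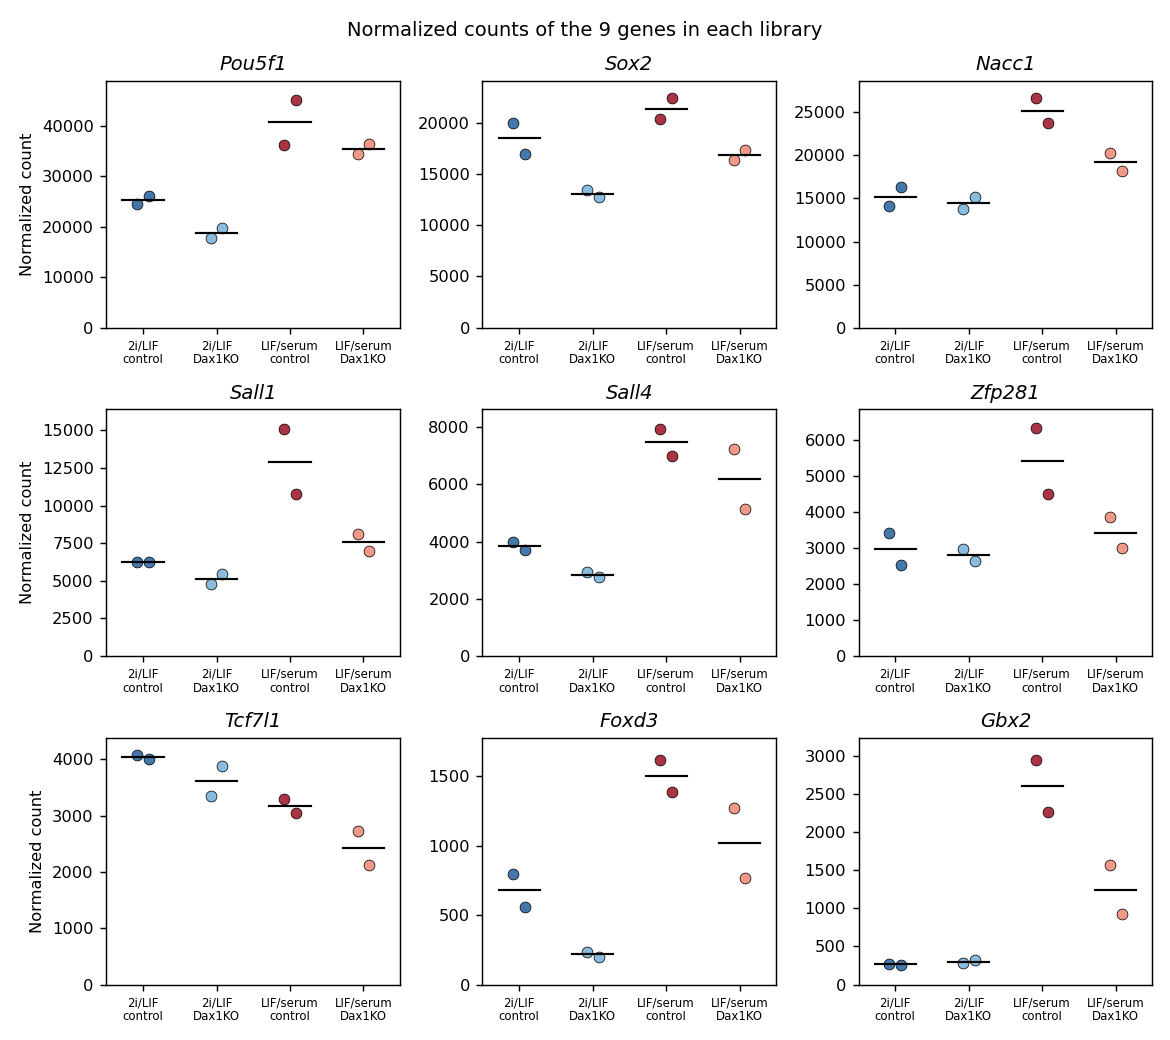
Normalized counts (linear axis from 0) of the 9 genes in each of the 8 libraries, where points are libraries and bars are the means of 2 libraries. Gbx2 lies at 256 to 320 in the 4 libraries in 2i/LIF and at 925 to 2947 in the 4 in LIF/serum, and Foxd3 is lowest in Dax1KO cells in 2i/LIF.

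Control ESCs in 2i/LIF were compared with control ESCs in LIF/serum to see how the members differ between the 2 states without the knockout. Expression of 7 of the 9 genes was lower in 2i/LIF (Gbx2, Foxd3, Sall1, Sall4, Zfp281, Nacc1 and Pou5f1), and no member was higher. A gene passed at an adjusted p of at most 0.05 in edgeR's quasi-likelihood test (Benjamini-Hochberg) and a fold of at least 1.2. Of all genes tested, 36.8% passed in this comparison, 16.5% as lower and 20.3% as higher. The median log2 fold change of the members was -0.86, and that of all genes was 0.01. The libraries of the 2 media did not overlap in any of the 9 genes, as in 68.6% of all genes tested.

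Gbx2, a homeobox factor that can sustain ESC self-renewal and lies downstream of LIF and STAT3, had the widest range. Its normalized count was 274 and 256 in 2i/LIF and 2947 and 2269 in LIF/serum. The media were far apart, and Gbx2 was 9.84-fold lower in 2i/LIF (log2 fold change -3.30, SE 0.27, adjusted p = 0.000103, edgeR). D130058E05Rik, an RNA on the opposite strand that shares 946 exonic bases with Gbx2, was also lower (-2.04, adjusted p = 0.000508, edgeR). No source gives the strand setting of the counting, so reads of these 2 genes cannot be told apart where they overlap.

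Foxd3, a forkhead factor needed to maintain pluripotent cells and, later, neural crest, gave 797 and 559 normalized counts in 2i/LIF and 1621 and 1387 in LIF/serum. The groups did not overlap, and Foxd3 was 2.22-fold lower in 2i/LIF (log2 fold change -1.15, SE 0.27, adjusted p = 0.0119, edgeR).

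The zinc finger factors Sall1 and Sall4 recruit NuRD, and SALL4 binds OCT4 and sustains Pou5f1 expression. Sall1 had 6277 and 6252 normalized counts in 2i/LIF against 15081 and 10762 in LIF/serum, a 2.06-fold lower level (adjusted p = 0.00231, edgeR). Sall4 had 3990 and 3712 against 7942 and 6992, a 1.94-fold lower level (adjusted p = 0.00312, edgeR). Both genes were thus about equally far below their level in serum, with no overlap between the media. Sall4 shares 526 exonic bases with Gm14261 on the opposite strand, which had at most 138 counts in any library.

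The remaining genes differed less. Zfp281, a zinc finger factor that promotes the exit from the naive state, had 3412 and 2533 normalized counts in 2i/LIF and 6328 and 4488 in LIF/serum (1.82-fold lower, adjusted p = 0.0162, edgeR). Nacc1, the BTB-domain factor NAC1 that binds NANOG, had 14100 and 16332 against 26627 and 23778 (1.66-fold lower, adjusted p = 0.00287, edgeR). Pou5f1 had 24462 and 26105 against 36137 and 45128 (1.61-fold lower, adjusted p = 0.00469, edgeR). In each of these genes both libraries in 2i/LIF lay below both in LIF/serum.

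Sox2 and Tcf7l1 did not pass. Sox2 had 19973 and 16999 normalized counts in 2i/LIF and 20361 and 22469 in LIF/serum, with a log2 fold change of -0.21 (95% interval -0.48 to 0.06, adjusted p = 0.189, edgeR). Tcf7l1, also called TCF3, is the repressor at the end of the WNT pathway that GSK3 inhibition relieves. It had 4073 and 4005 against 3291 and 3050, with a log2 fold change of 0.35 (95% interval 0.02 to 0.68, adjusted p = 0.0943, edgeR). Tcf7l1 was the sole member with a value above 0 here. Leaving out 2i/LIF control replicate 2 took the calls of Zfp281 (adjusted p = 0.0904, edgeR) and Foxd3 (0.0746), and leaving out LIF/serum control replicate 1 did the same (0.092 and 0.0583).

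**Figure D2:**
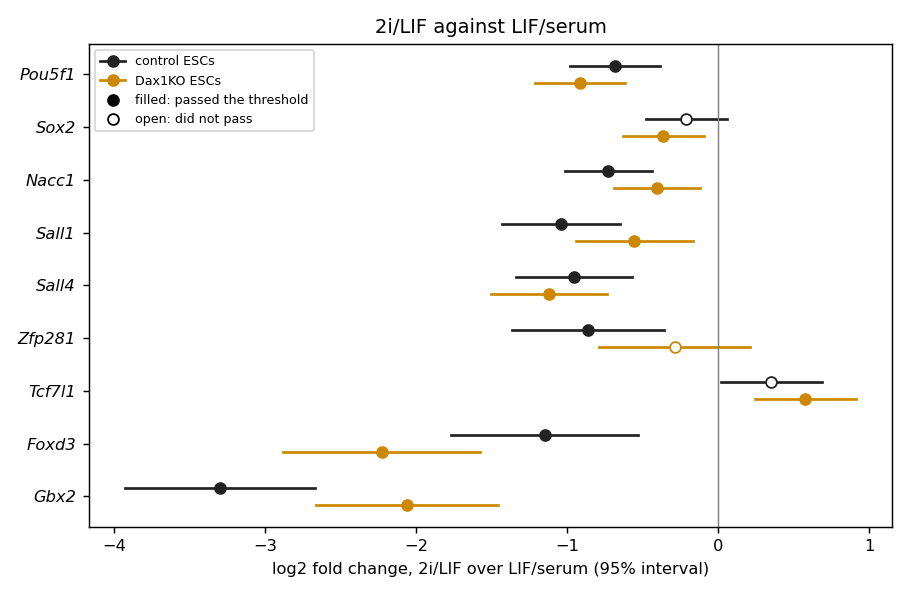
Log2 fold changes of 2i/LIF over LIF/serum (horizontal axis) with 95% intervals for the 9 genes, in control ESCs (black) and Dax1KO ESCs (orange), filled where the gene passed the threshold. Of the 9 genes, 8 lie below 0 in both genotypes, and Tcf7l1 lies above 0 in both.

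The same comparison was made in Dax1KO ESCs, where 28.9% of all genes passed, 13.7% as lower and 15.2% as higher in 2i/LIF. Expression of 7 members was lower in 2i/LIF, which here included Sox2 but not Zfp281, and Tcf7l1 was higher. The median log2 fold change was -0.56 for the members and 0.01 for all genes. The media again did not overlap in any of the 9 genes, as in 68.9% of all genes. This comparison uses other libraries than the one in control cells, but both share libraries with the knockout comparisons below.

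Foxd3 had the largest difference of the members. Its normalized count was 236 and 198 in Dax1KO cells in 2i/LIF and 1271 and 768 in LIF/serum, a 4.69-fold lower level (log2 fold change -2.23, SE 0.28, adjusted p = 0.000976, edgeR). Gbx2 had 277 and 320 against 1569 and 925 (4.18-fold lower, log2 fold change -2.06, SE 0.26, adjusted p = 0.000971, edgeR). In both genes the LIF/serum libraries were far from each other, yet all of them lay above those in 2i/LIF.

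Sall4 was 2.18-fold lower in 2i/LIF, at 2935 and 2752 normalized counts against 7237 and 5152 (adjusted p = 0.00202, edgeR). Pou5f1 was 1.89-fold lower, at 17803 and 19639 against 34312 and 36289 (adjusted p = 0.00168, edgeR). Sall1 was 1.47-fold lower, at 4806 and 5464 against 8117 and 6975 (adjusted p = 0.0406, edgeR). The groups of these 3 genes did not overlap.

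Nacc1 was 1.32-fold lower, at 13820 and 15157 normalized counts against 20255 and 18132 (adjusted p = 0.0412, edgeR). Sox2 was 1.29-fold lower, at 13443 and 12776 against 16414 and 17375 (adjusted p = 0.0477, edgeR). Tcf7l1 rose 1.49-fold, with 3343 and 3887 in 2i/LIF against 2721 and 2129 in LIF/serum (adjusted p = 0.0205, edgeR). Zfp281 had 2984 and 2628 against 3867 and 2990, with a log2 fold change of -0.29 (95% interval -0.79 to 0.21, adjusted p = 0.366, edgeR). The calls of Sall1, Nacc1 and Sox2 were lost without any of the 4 Dax1KO libraries (adjusted p from 0.071 to 0.234, edgeR), and that of Sall1 also without either control library in 2i/LIF (0.0657 and 0.0595). The call of Tcf7l1 was lost without Dax1KO replicate 2 in 2i/LIF (0.144) or in LIF/serum (0.118), and Sall1, Nacc1 and Sox2 did not pass with no filter on low counts (0.0865, 0.0661 and 0.072).

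Dax1KO cells were next compared with control cells within 2i/LIF, where 1 of the 9 genes, Foxd3, fell. Of all genes tested, 3.16% passed in this comparison, 1.65% as lower and 1.51% as higher. The members had a median log2 fold change of -0.29 against -0.01 for all genes, with 8 of 9 below 0. The libraries of the 2 genotypes did not overlap in 7 of the 9 genes and in 51.8% of all genes, so a lack of overlap between groups of 2 is common here. Foxd3 had 797 and 559 normalized counts with Dax1 and 236 and 198 without it. The groups were apart, and Foxd3 was 3.12-fold lower in Dax1KO cells (log2 fold change -1.64, SE 0.28, adjusted p = 0.0267, edgeR). This call rests on all 4 libraries, since the adjusted p from edgeR was 0.123 and 0.0585 without control replicate 1 or 2 and 0.142 and 0.182 without Dax1KO replicate 1 or 2. The log2 fold change was then between -1.86 and -1.36, and with no filter on low counts the adjusted p was 0.0825.

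Of the genes that did not pass, Sox2, Pou5f1 and Sall4 had an unadjusted p under 0.05. Sox2 had 19973 and 16999 normalized counts in control cells and 13443 and 12776 in Dax1KO cells, with a log2 fold change of -0.50 (SE 0.12, adjusted p = 0.0649, edgeR). Pou5f1 had 24462 and 26105 against 17803 and 19639, with -0.43 (SE 0.13, adjusted p = 0.126, edgeR). Sall4 had 3990 and 3712 against 2935 and 2752, with -0.44 (SE 0.17, adjusted p = 0.214, edgeR). Every Dax1KO library lay below both control libraries in these 3 genes, as it did in Foxd3, Sall1 and Tcf7l1. With DESeq2 in place of edgeR, Sox2 (adjusted p = 0.00528) and Pou5f1 (adjusted p = 0.0498) passed, so 3 of the 9 genes were called.

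Sall1, at 6277 and 6252 normalized counts in control cells and 4806 and 5464 in Dax1KO cells, had a log2 fold change of -0.29 (95% interval -0.67 to 0.10). Tcf7l1 stood at -0.16 (-0.49 to 0.17), Zfp281 at -0.08 (-0.58 to 0.42), Nacc1 at -0.07 (-0.36 to 0.21) and Gbx2 at 0.17 (-0.42 to 0.77). Their adjusted p lay from 0.439 to 0.907 (edgeR). The Zfp281 and Nacc1 libraries of the 2 genotypes overlapped.

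In LIF/serum, Dax1KO cells had lower expression of 2 of the 9 genes, Sall1 and Gbx2, where 14.7% of all genes passed, 5.78% as lower and 8.87% as higher. All 9 genes had log2 fold changes below 0, with a median of -0.39 against 0.01 for all genes, and 6 had an unadjusted p under 0.05. The genotypes did not overlap in 7 of the 9 genes, against 57.5% of all genes. Gbx2 had 2947 and 2269 normalized counts in control cells and 1569 and 925 in Dax1KO cells. It was 2.09-fold lower (log2 fold change -1.06, SE 0.25, adjusted p = 0.0285, edgeR). Its antisense partner D130058E05Rik had a log2 fold change of -0.58 (adjusted p = 0.134, edgeR).

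Sall1 had 15081 and 10762 normalized counts in control cells and 8117 and 6975 in Dax1KO cells, a 1.71-fold lower level (log2 fold change -0.78, SE 0.17, adjusted p = 0.0223, edgeR). The groups of both genes did not overlap. Replicates 1 and 2 of Sall1 were 0.49 apart on the log2 scale in control cells and 0.22 in Dax1KO cells, and those of Gbx2 0.38 and 0.76. Both calls were lost without control replicate 1 in LIF/serum (log2 fold change -0.51, adjusted p = 0.0637 for Sall1 and -0.86, 0.114 for Gbx2, edgeR) and without Dax1KO replicate 2 in LIF/serum (0.138 and 0.118). Sall1 was also lost without Dax1KO replicate 1 in LIF/serum (0.058), and Gbx2 without Dax1KO replicate 1 or 2 in 2i/LIF (0.056 and 0.0555). Neither passed with no filter on low counts (adjusted p = 0.0585 for Sall1 and 0.0753 for Gbx2, edgeR) or in a fit of the LIF/serum libraries alone (0.0567 and 0.0619).

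**Figure D3:**
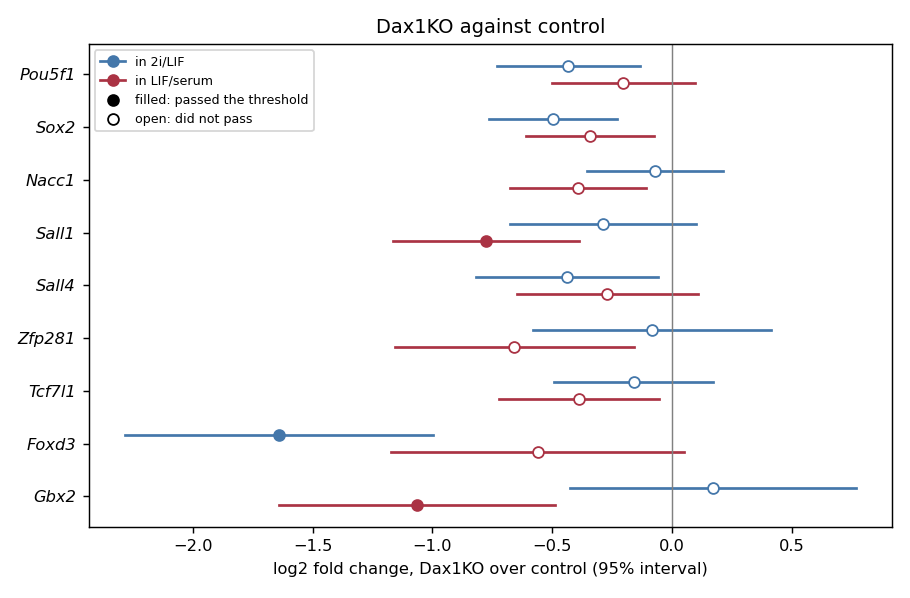
Log2 fold changes of Dax1KO over control (horizontal axis) with 95% intervals for the 9 genes in 2i/LIF (blue) and LIF/serum (red), filled where the gene passed the threshold. Foxd3 passed in 2i/LIF at -1.64, and Sall1 and Gbx2 passed in LIF/serum at -0.78 and -1.06.

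Zfp281, Nacc1 and Sox2 came closest to the threshold in LIF/serum. Zfp281 had 6328 and 4488 normalized counts in control cells and 3867 and 2990 in Dax1KO cells, with a log2 fold change of -0.66 (SE 0.22, adjusted p = 0.0807, edgeR). Nacc1 had 26627 and 23778 against 20255 and 18132, with -0.39 (SE 0.12, adjusted p = 0.0707, edgeR). Sox2 had 20361 and 22469 against 16414 and 17375, with -0.34 (SE 0.12, adjusted p = 0.0882, edgeR). All 3 passed with DESeq2 (adjusted p = 0.0196, 0.0363 and 0.0428), which called 5 of the 9. Zfp281 also passed in edgeR when at least 10 counts were asked for in every library (adjusted p = 0.0491).

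Tcf7l1 had 3291 and 3050 normalized counts in control cells and 2721 and 2129 in Dax1KO cells, or -0.39 on the log2 scale (adjusted p = 0.114, edgeR). Foxd3 had 1621 and 1387 against 1271 and 768, with -0.56 (95% interval -1.17 to 0.05, adjusted p = 0.197, edgeR). Sall4 stood at -0.27 (-0.65 to 0.11) and Pou5f1 at -0.20 (-0.50 to 0.09), and the libraries of the 2 genotypes overlapped in both. Replicates 1 and 2 of Dax1KO cells in LIF/serum were furthest apart for Gbx2 (0.76 on the log2 scale), Foxd3 (0.73) and Sall4 (0.49), and replicate 2 was the lower library in each. Replicate 2 was also the lower library of these genes in control cells in LIF/serum, by 0.38, 0.23 and 0.18.

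Whether the effect of Dax1KO differed between the media was tested directly. None of the 9 genes passed the adjusted p of 0.05 from edgeR, where 2.87% of all genes did, 0.824% with a lower and 2.05% with a higher effect in LIF/serum. Gbx2 and Foxd3 had an unadjusted p under 0.05, in opposite directions. For Gbx2 the effect in LIF/serum minus that in 2i/LIF was -1.24 on the log2 scale (95% interval -2.06 to -0.41, adjusted p = 0.115, edgeR), and DESeq2 called it (adjusted p = 0.0164), the sole member it called. For Foxd3 the difference was 1.08 (0.20 to 1.96, adjusted p = 0.177, edgeR). The intervals of the other 7 genes spanned 0. They were -0.19 to 0.65 for Pou5f1, -0.22 to 0.53 for Sox2 and -1.04 to 0.06 for Sall1.

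Tcf7l1 is the sole member on chromosome 6, and this chromosome differed from the others in Dax1KO cells. The median log2 fold change of its 1054 tested genes was 0.44 for 2i/LIF and 0.52 for LIF/serum, while that of the genes on other chromosomes was -0.03 and -0.00021. On the chromosomes of the other members the medians lay from -0.06 to -0.01 in 2i/LIF and from -0.06 to 0.04 in LIF/serum. Tcf7l1, at -0.16 and -0.39, thus lay below most of its chromosome, of which 14.4% of genes in 2i/LIF and 12.7% in LIF/serum were lower. Among the 320 genes of chromosome 6 with a mean count of at least 1000, 7 were lower than Tcf7l1 in 2i/LIF and 8 in LIF/serum. The part of chromosome 6 in the values of Tcf7l1 was not tested.

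**Figure D4:**
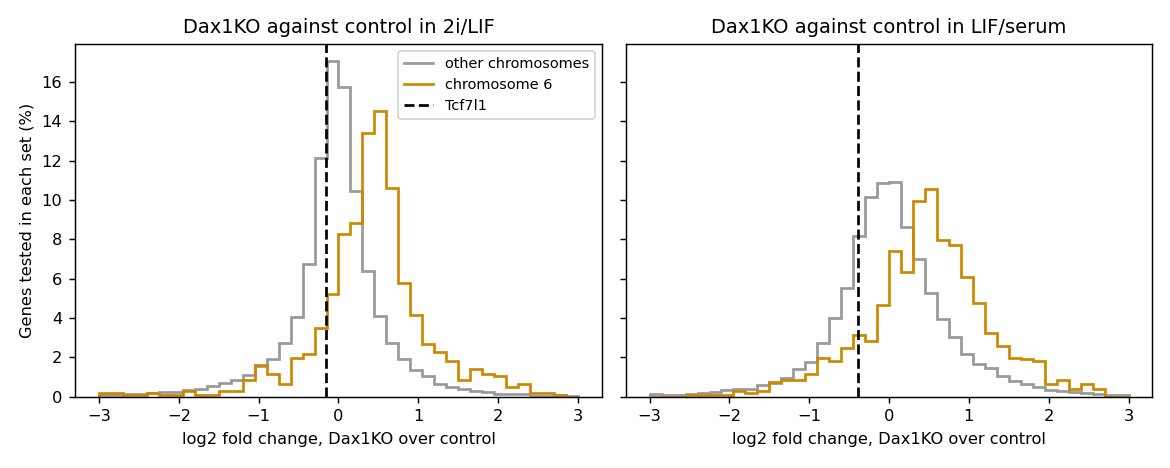
Distribution of log2 fold changes of Dax1KO over control (horizontal axis) among tested genes of chromosome 6 (orange) and of all other chromosomes (grey), as percent of each set per bin, in 2i/LIF and LIF/serum. The orange curve has its median at 0.44 and 0.52, and the dashed line of Tcf7l1 lies to its left at -0.16 and -0.39.

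Several members share sequence with another annotated gene, and values there are uncertain. Pou5f1 (chromosome 17, 35506018 to 35510772 on GRCm38, plus strand) shares 317 exonic bases with the antisense gene Gm19553. Gm19553 had 2701 to 7200 counts, with log2 fold changes of -0.73 in control cells and -1.06 in Dax1KO cells for 2i/LIF against LIF/serum, close to those of Pou5f1. Nacc1 (chromosome 8, 84670483 to 84687862, minus strand) matches the pseudogene Gm15784 over 34.3% of its transcript, where Gm15784 had 187 to 341 counts. Gbx2 (chromosome 1, 89927956 to 89931179, minus strand) matches D130058E05Rik over 44.3%. Sox2 (chromosome 3, 34650405 to 34652461, plus strand) and Foxd3 (chromosome 4, 99656299 to 99658622, plus strand) have a lone exon. Sox2 lies in an intron of Sox2ot, which had 14 to 81 counts, and Foxd3 holds the miRNA gene Gm23366, with 1 count in each library. Tcf7l1 (chromosome 6, 72626378 to 72789254, minus strand) shares 179 exonic bases with Gm15401, at 5 to 13 counts. Sall1 (chromosome 8, 89027235 to 89044162, minus strand), Sall4 (chromosome 2, 168748332 to 168767943, minus strand) and Zfp281 (chromosome 1, 136624901 to 136630053, plus strand) complete the set, and Sall1 and Zfp281 overlap no annotated gene.

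The genes with the pattern most like a member were named for the 5 members whose group means spanned at least 1 on the log2 scale. Likeness was the root mean square difference of centred log2 CPM over the 8 libraries. For Gbx2 the closest were Gm14029 (0.15), Awat2 (0.19) and 2210008F06Rik (0.21), and for Foxd3 they were Lrrn4 (0.22), Nefh (0.23) and Ctsf (0.26). Pou5f1 was matched by Hspb1 (0.08), by its overlapping antisense gene Gm19553 (0.08) and by Gcsh (0.10). Sall1 was matched by Gm10257, Ajuba and Srrt (0.08 to 0.10), and Sall4 by Ccdc106, Eif3l and Ccn4 (0.08 to 0.11). Among the members themselves, Sall1 and Zfp281 were the closest pair at 0.20 and Tcf7l1 and Gbx2 the most distant at 1.58.

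Genes that work with the members or downstream of them were taken from lists. Of 11 known target genes of OCT4 and SOX2, 0 passed in Dax1KO cells in 2i/LIF by edgeR, where 2 had an unadjusted p under 0.05 and DESeq2 called 2. In LIF/serum 2 fell, the secreted factors Lefty1 (log2 fold change -2.22, adjusted p = 0.00587, edgeR) and Spp1 (-1.44, adjusted p = 0.00109, edgeR). There 7 of the 11 had an unadjusted p under 0.05 and DESeq2 called 4. Without Dax1KO replicate 2 in LIF/serum, Lefty1 did not pass (0.0533). In control cells, 4 of these targets were higher in 2i/LIF than in LIF/serum and 4 lower. Nanog, the core homeobox factor, was higher (1.39, adjusted p = 7.44e-05, edgeR), in the opposite direction to Pou5f1, and Dppa4 was lower (-1.14, adjusted p = 0.000207, edgeR). In Dax1KO cells 3 were higher and 4 lower. The median log2 fold change of Dax1KO over control among the 11 was -0.16 in 2i/LIF and -0.30 in LIF/serum, against -0.01 and 0.01 for all genes.

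Of 12 factors of the naive network, 3 fell in Dax1KO cells in 2i/LIF, namely Nr5a2 (log2 fold change -0.81, adjusted p = 0.0276, edgeR), a nuclear receptor that binds Dax1, Prdm14 (-0.86, adjusted p = 0.0412) and Klf2 (-0.76, adjusted p = 0.0488). In LIF/serum Nr5a2 (-1.30, adjusted p = 0.00244, edgeR) and Klf2 (-1.14, adjusted p = 0.00565) fell and Klf4 rose (0.79, adjusted p = 0.0107). The 3 calls in 2i/LIF were lost without any of the 4 libraries in 2i/LIF or either Dax1KO library in LIF/serum, with an adjusted p of up to 0.189 for Nr5a2, 0.242 for Prdm14 and 0.278 for Klf2 (edgeR), and that of Prdm14 also without control replicate 2 in LIF/serum (0.0508). None of these 3 passed with no filter on low counts (0.0696, 0.0999 and 0.118). Without chromosome 6, Prdm14 (0.0503) and Klf2 (0.0594) were lost, as was Prdm14 in a fit of 2i/LIF alone (0.0666) and Klf2 with RLE factors (0.0509). Klf4 was lost without Dax1KO replicate 1 in LIF/serum (0.0529). DESeq2 called 6 of the 12 in 2i/LIF and 4 in LIF/serum, and 6 and 7 had an unadjusted p under 0.05. The median of the 12 was -0.25 in 2i/LIF and 0.13 in LIF/serum. Between the media, edgeR called 5 as higher in 2i/LIF in control cells, where 7 had an unadjusted p under 0.05 and DESeq2 called 6, and it called 4 as higher and 1 as lower in Dax1KO cells.

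Of 12 subunits of NuRD, which SALL factors and ZFP281 are known to recruit, 1 fell in Dax1KO cells in 2i/LIF, Mta2 (log2 fold change -0.59, adjusted p = 0.0486, edgeR), and 0 passed in LIF/serum by edgeR. In each medium 4 had an unadjusted p under 0.05, and DESeq2 called 3 in 2i/LIF and 2 in LIF/serum. The call of Mta2 was lost without any of the 4 libraries in 2i/LIF or either Dax1KO library in LIF/serum (adjusted p from 0.0725 to 0.251, edgeR), and with RLE factors (0.0525), no filter (0.0966) or no chromosome 6 (0.0591). Mbd3 (-1.03, adjusted p = 0.00249, edgeR) and Mta3 (-0.74, adjusted p = 0.00711) were lower in 2i/LIF in control cells, and the other 10 did not pass by edgeR, while DESeq2 also called 2 of the 12. In Dax1KO cells 3 were higher and 2 lower. The median of the 12 in Dax1KO over control was -0.10 in 2i/LIF and -0.21 in LIF/serum.

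Of 17 paralogues of the members, Sall2 fell in Dax1KO cells in both media (log2 fold change -1.51 in 2i/LIF, adjusted p = 0.0256, and -1.37 in LIF/serum, adjusted p = 0.0126, edgeR), and Sall3 fell in LIF/serum (-1.82, adjusted p = 0.0133, edgeR). The octamer-binding factor Pou2f3 fell in 2i/LIF (-0.87, adjusted p = 0.0271, edgeR) and rose in LIF/serum (1.86, adjusted p = 0.00125). The calls of Sall2 and Pou2f3 in 2i/LIF were lost without any of the 4 libraries in 2i/LIF (adjusted p of up to 0.174 and 0.181, edgeR) and with no filter (0.0651 and 0.063). Those of Sall2 and Sall3 in LIF/serum were lost without Dax1KO replicate 2 in LIF/serum (0.0883 and 0.0947), and that of Sall3 without control replicate 1 (0.0543). The other paralogues did not pass in either medium by edgeR. DESeq2 called 4 of the 17 in 2i/LIF and 5 in LIF/serum, 9 and 6 had an unadjusted p under 0.05, and the median of the 17 was -0.45 in 2i/LIF and -0.18 in LIF/serum. Between the media, 6 were higher and 5 lower in 2i/LIF in control cells, and 3 were higher and 3 lower in Dax1KO cells.

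For the WNT branch in which Tcf7l1 works, 11 genes, beta-catenin and its targets, were listed and 10 tested. The homeobox gene Cdx1 rose in Dax1KO cells in both media (log2 fold change 2.39 in 2i/LIF, adjusted p = 0.0145, and 1.90 in LIF/serum, adjusted p = 0.0105, edgeR). In LIF/serum the WNT inhibitor gene Nkd1 also rose (1.64, adjusted p = 0.00382, edgeR) and Sp5 fell (-1.65, adjusted p = 0.0423), and the median of the 10 was 0.13 in 2i/LIF and 0.18 in LIF/serum. DESeq2 called 2 of the 10 in 2i/LIF and 3 in LIF/serum, and 5 and 3 had an unadjusted p under 0.05. Cdx1 was lost within 2i/LIF without control replicate 1 (0.0594), either Dax1KO library (0.0759 and 0.0945) or the filter (0.0536). In LIF/serum it was lost without control replicate 1 (0.0533) or Dax1KO replicate 2 (0.0656). Sp5 was lost without any library in LIF/serum or either Dax1KO library in 2i/LIF (0.0673 to 0.174), or with no filter (0.1). Between the media 2 of the 10 were higher and 1 lower in 2i/LIF in control cells, and 1 was higher and 2 lower in Dax1KO cells.

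Of 11 genes of the formative and primed state, Etv4 rose in Dax1KO cells in both media (0.75, adjusted p = 0.0266, and 1.04, adjusted p = 0.00345, edgeR), Etv5 fell in 2i/LIF (-0.85, adjusted p = 0.037) and Zic2 fell in LIF/serum (-2.25, adjusted p = 0.0021). The calls of Etv4 and Etv5 in 2i/LIF were lost without any of the 4 libraries in 2i/LIF (adjusted p of up to 0.17 and 0.22, edgeR) and with no filter (0.0623 and 0.0947). DESeq2 called 3 of the 11 in each medium, and 5 in 2i/LIF and 3 in LIF/serum had an unadjusted p under 0.05. The median of the 11 was 0 in 2i/LIF and -0.10 in LIF/serum. Of the 11, 6 were lower and 1 higher in 2i/LIF in control cells, and 8 were lower and 1 higher in Dax1KO cells.

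Markers of other cell types were followed beside the 9 genes. Of 8 markers of primitive endoderm, 6 rose in Dax1KO cells in LIF/serum, among them Gata4 (log2 fold change 1.44, adjusted p = 0.00221, edgeR) and Gata6 (1.38, adjusted p = 0.0198). Gata6 was lost without control replicate 2 (0.0972) or either Dax1KO library in LIF/serum (0.078 and 0.0841), and with no filter (0.055). Their summed level was 128 to 143 CPM in control and 95.6 to 127 in Dax1KO cells in 2i/LIF, and 414 to 706 in control and 1350 to 1655 in Dax1KO cells in LIF/serum. All 8 were lower in 2i/LIF than in LIF/serum in both genotypes, 1 rose in Dax1KO cells in 2i/LIF, and none was at 3 counts or fewer in both libraries of a group. Of 8 trophectoderm markers, 2 rose in Dax1KO cells in 2i/LIF, and 3 rose and 1 fell in LIF/serum, with summed levels from 109 to 177 over the 8 libraries.

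Fibroblast markers had low summed levels, 15.8 to 17.2 in control cells in LIF/serum and 46.9 to 67.1 in the other groups, and 4 of the 8 had at most 3 counts in both LIF/serum libraries, in each genotype. Of the 6 tested, 1 rose and 1 fell in Dax1KO cells in 2i/LIF, and 3 rose in LIF/serum. Neural markers summed to 127 to 174, and 1 of 6 tested fell in LIF/serum. Mesoderm markers summed to 2.95 to 10.3 and 0 of 7 passed in either medium by edgeR or DESeq2, with 1 in 2i/LIF and 0 in LIF/serum at an unadjusted p under 0.05. Of the ESC markers in Dax1KO cells, 0 of 8 passed in 2i/LIF by edgeR, 1 with DESeq2 and 1 at an unadjusted p under 0.05. In LIF/serum 1 of the 8 fell by edgeR, DESeq2 called 2 and 5 had an unadjusted p under 0.05. In bulk libraries, fewer cells that express a gene and less RNA per cell cannot be told apart. The part of these cell types in the values of the 9 genes was not tested.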

How the data were processed

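mRNA of 8 libraries was sequenced by the authors, and each library was assigned to its genotype, medium and replicate from its title. The deposited files hold raw counts per gene, whole numbers without normalization. The submitters' processing notes name HISAT2 2.0.4, DESeq2 and the build mm10, while the counting tool, its strand setting and the annotation are not given in the sources used here. Low counts piled up at 3 and 6, so single low values may not stand for separate fragments. Symbols and coordinates came from GENCODE M21 (GRCm38), which held 52403 of the 52550 identifiers.

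Counts were tested with edgeR 4.0.16 in R 4.3.3 (filterByExpr, TMM, 4 group means, quasi-likelihood test, Benjamini-Hochberg adjustment over 20749 genes), a step tested on simulated data. The difference between media was called by the adjusted p alone. RPKM used the union of annotated exons, and log2 CPM a prior count of 2. Shared transcript sequence was searched with blastn 2.17.0 at 95% identity. Named genes were the members, Dax1, genes overlapping or matching a member, up to 3 called genes of each list and comparison with the smallest adjusted p, and the closest genes by pattern. Gata6 was named after its values were seen. The members and lists were chosen with earlier results of these data known. Alternatives were DESeq2 1.42.0, RLE factors, no filter, at least 10 counts in every library, a replicate block, genes without chromosome 6, a fold of 2, fits within a medium and each library left out. The authors' own tables of differential expression were not used.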

Additional observations from a re-analysis of the deposited data

Results flagged for a closer look

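The effect of Dax1KO differed between the media, by the test of the difference itself, for 6 genes of the pathway lists, for 5 marker genes of other cell types and for no member, where 2.87% of all genes passed. The difference is the log2 fold change in LIF/serum minus that in 2i/LIF, from edgeR's quasi-likelihood test. For Pou2f3 it was 2.73 (adjusted p = 0.00324), with mean normalized counts of 1752 in control and 961 in Dax1KO cells in 2i/LIF against 250 and 907 in LIF/serum. For Sall3 it was -2.34 (adjusted p = 0.0458), with 93.2 and 134 in 2i/LIF against 494 and 140 in LIF/serum. Lefty1 differed by -2.32 (adjusted p = 0.0422), with 148 and 159 in 2i/LIF against 3880 and 831 in LIF/serum. Spp1 differed by -0.98 (adjusted p = 0.0238), Nkd1 by 1.38 (adjusted p = 0.0439) and Zic2 by -1.96 (adjusted p = 0.0258). With each library left out in turn, Pou2f3 kept its call (adjusted p of at most 0.0405, edgeR). The others did not: Lefty1 was lost without any library but Dax1KO replicate 1 in 2i/LIF, Sall3 without any but control replicate 1 in 2i/LIF, and Nkd1 without any of the 8. Spp1 was lost without any library in 2i/LIF or either Dax1KO library in LIF/serum, and Zic2 without any but control replicate 2 in 2i/LIF and control replicate 1 in LIF/serum. The highest adjusted p was 0.154 for Sall3, 0.141 for Lefty1, 0.108 for Spp1, 0.173 for Nkd1 and 0.105 for Zic2. None of these 5 passed with no filter on low counts (0.123, 0.125, 0.0594, 0.0918 and 0.0794 in the same order).

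Of the marker lists, the difference passed for 2 of 8 primitive endoderm genes, Gata4 (1.60, adjusted p = 0.0161, edgeR) and Gata6 (2.51, adjusted p = 0.0286), and all 8 had values above 0, with a median of 1.31. Mean normalized counts of Gata6 were 258 in control and 118 in Dax1KO cells in 2i/LIF against 620 and 1607 in LIF/serum. The difference was 2.77 for the trophectoderm gene Hand1 (adjusted p = 0.0258, edgeR), -2.68 for the neural gene Pax6 (0.03) and 2.47 for the fibroblast marker Thy1 (0.00364), 1 gene of 8, 6 and 6 tested. The medians of these 3 lists were -0.41, -0.08 and -0.34, with 3 of 8, 3 of 6 and 2 of 6 genes above 0. Hand1 and Thy1 thus lay opposite to the median of their lists. No ESC or mesoderm marker passed by edgeR or DESeq2, where 2 ESC and 0 mesoderm markers had an unadjusted p under 0.05. Thy1 kept its call with each library left out (adjusted p of at most 0.0418, edgeR). Gata4 was lost without any library in 2i/LIF or either Dax1KO library in LIF/serum (up to 0.09). Gata6 was lost without any but Dax1KO replicate 2 in 2i/LIF and control replicate 1 in LIF/serum (up to 0.1), Hand1 without any but control replicate 2 in 2i/LIF and control replicate 1 in LIF/serum (up to 0.115), and Pax6 without any but that last library (up to 0.116). With no filter on low counts, Gata6 (0.0843), Hand1 (0.0739) and Pax6 (0.0794) did not pass.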

How the results depend on the processing

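The number of the 9 genes called moved with the processing. DESeq2 called 3 in Dax1KO against control in 2i/LIF, 5 in LIF/serum and 1 for the difference between media, against 1, 2 and 0 with edgeR. Without a filter on low counts, which tests 32103 genes, edgeR called 0 in 2i/LIF, 0 in LIF/serum and 5 between the media in Dax1KO cells, against 1, 2 and 8. At a fold of at least 2 there remained 1 call in LIF/serum and 3 between the media in each genotype, against 2, 7 and 8. A fit of the LIF/serum libraries alone called 0. Over all genes, the count in 2i/LIF was 656 and became 1455 with DESeq2, 121 without a filter, 430 without chromosome 6 and 408 at a fold of 2. That in LIF/serum was 3041 and became 1842 without a filter, 1743 within the medium and 1420 at a fold of 2. At a fold of 2 the counts between the media were 4535 of 7641 in control and 3580 of 5999 in Dax1KO cells. The difference between media had 596, with 1510 by DESeq2 and 119 without a filter. With each library left out in turn, a lone library being taken to vary like the other groups, calls ranged over 0 to 1 in 2i/LIF, 0 to 2 in LIF/serum, 5 to 7 and 4 to 8 between the media in control and Dax1KO cells, and 0 to 0 for the difference.

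The sign turned for 4 values near 0. With each library left out, the log2 fold change in 2i/LIF ranged from -0.27 to 0.15 for Zfp281 (0.15 without control replicate 1, 0.0060 without Dax1KO replicate 2) and from -0.17 to 0.053 for Nacc1 (above 0 without control replicate 2). The difference between media of Sall4 ranged from -0.095 to 0.40 (below 0 without Dax1KO replicate 1 in LIF/serum). Over single members and settings, 616 values kept direction and side of the threshold, 51 lost it, 8 gained it and 4 turned. Among named list genes, 839 kept it and 176 lost it. The cause was not tested.

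Deviations of same-numbered libraries from their group means correlated weakly between the genotypes, at 0.08 for 2i/LIF and 0.11 for LIF/serum. Among the members, however, replicate 1 minus replicate 2 had the same sign in both genotypes of LIF/serum for every gene. For Zfp281 it was 0.50 on the log2 scale in control and 0.37 in Dax1KO cells of that medium. For 2i/LIF the sign differed between genotypes for Sall1, Tcf7l1 and Gbx2 and was shared for the other members. Whether same-numbered samples belong together was not tested. With the replicate number as a block, edgeR called 1 member in 2i/LIF, 3 in LIF/serum, 7 and 6 between the media in control and Dax1KO cells and 0 for the difference. Zfp281 was gained in LIF/serum (adjusted p = 0.0149, edgeR), and Sox2 (0.0541) and Nacc1 (0.0501) were lost between the media in Dax1KO cells. Of the named list genes, Klf2 in 2i/LIF (0.0524) and Sp5 in LIF/serum (0.0574) were lost in Dax1KO against control, and no other call changed.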
